A study of Mus musculus with 24 samples.

Results

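The 42 genes described here act in the cell cycle and DNA replication, and each was taken by its symbol from the GENCODE M1 annotation of the mouse mm9 build, among 22367 protein-coding genes counted. For this report 19 were assigned to G1 and S phase and 23 to G2 and mitosis. The assignment is a choice for genes that act in more than 1 phase. Mybl2, a factor for late genes, was placed in G1 and S phase, and Foxm1 in G2 and mitosis. All 42 symbols were found, and the list is one of names, with no threshold on a measured value, though it was chosen with earlier results of these data known.

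The study sequenced ribosome-depleted total RNA, which keeps unspliced and non-polyadenylated transcripts, from CCE cells and from fetal head (FH). CCE are feeder-independent embryonic stem cells of strain 129/SvEv that were differentiated for 5 days by removing LIF and adding retinoic acid at 0.266 µM, and FH is the head of FVB/N embryos dissected at 14.5 dpc. Depletion with the RiboMinus kit yielded 4 CCE and 3 FH preparations of cDNA, and both Vienna-IMP and Nijmegen sequenced every one (8 CCE and 6 FH libraries), and 1 library per tissue was depleted with Ribo-Zero on other RNA and sequenced at Vienna-CeMM. In CCE 2 preparations were fragmented by RNA hydrolysis and 2 by cDNA shearing, and in FH 1 (FH1) was sheared and 2 (FH1 and FH2) were hydrolysed, with 2 rounds of depletion for FH2. The Ribo-Zero libraries were hydrolysed. By the study's methods both ways of fragmentation were applied to the same depleted RNA, so that the preparations stand for 2 depleted RNA samples of CCE (CCE1 and CCE2) and 2 of FH (FH1 and FH2), which the fits treat as separate values. Strain, growth in culture and tissue differed together between the groups and cannot be told apart, the CCE preparations are technical replicates, and no source used here ties the FH preparations to separate embryos, so that p-values measure the spread between preparations only.

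A cell commits to division when cyclin E with its kinase releases the E2F factors, which switch on the genes for DNA synthesis. Origins are licensed when Cdc6 and Cdt1 load the ring of Mcm2 to Mcm7 that later unwinds DNA, while the clamp Pcna and the enzymes Rrm1, Rrm2 and Tyms serve the replication fork. Cyclin B with Cdk1 then drives mitosis, in which Plk1 and the Aurora kinases, the spindle checkpoint, kinetochore proteins and kinesins part the chromosomes, and the promoters of these late genes are known for CCAAT boxes next to a cell cycle homology region (CHR), whereas early genes are known for E2F sites.

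These promoter elements were read in the RefSeq table of windows from 250 bases before to 50 after each start (build GRCm38.p6), which held 34 of the 42 genes. Both strands were searched for CCAAT, for the CHR as TTTGAA or TTCGAA, and for an E2F site as TTTCCCGC, TTTCGCGC, TTTGCCGC or TTTGGCGC, counting a gene when any of its windows held a match. Of the 18 G2/M genes in the table, 14 held both CCAAT and the CHR (77.8%), against 9.65% of the 27025 genes in the table and 3 of the 16 G1/S genes (18.8%). In 13 of the 18 the CHR began within 50 bases of the start (72.2%, against 6.12% of all genes). An E2F site was found in 7 of the 16 G1/S genes (43.8%) and in 1 of the 18 G2/M genes, Cdk1 (5.56%), against 2.61% of all genes. Matches are descriptions of letters, and binding was not measured.

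The 250 bases before the start are printed for Mcm5 and Mcm6, which carry E2F sites and CCAAT, for Cdk1, Cdc20 and Kif11, whose CHR lies before the start, and for the first start of E2f2, the only member that was higher in FH. Capitals mark CCAAT, CHR and E2F matches on either strand, the sequence runs 5′ to 3′ with the gene, and coordinates are those of GRCm38.p6, while gene coordinates given later are those of mm9.
Mcm5, chr8:75109259-75109508, plus strand: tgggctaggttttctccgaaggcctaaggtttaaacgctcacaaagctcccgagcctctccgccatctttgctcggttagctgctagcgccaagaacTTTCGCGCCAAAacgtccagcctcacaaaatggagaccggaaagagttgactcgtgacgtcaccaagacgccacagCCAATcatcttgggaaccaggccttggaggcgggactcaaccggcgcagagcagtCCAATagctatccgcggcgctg
Mcm6, chr1:128359706-128359955, minus strand: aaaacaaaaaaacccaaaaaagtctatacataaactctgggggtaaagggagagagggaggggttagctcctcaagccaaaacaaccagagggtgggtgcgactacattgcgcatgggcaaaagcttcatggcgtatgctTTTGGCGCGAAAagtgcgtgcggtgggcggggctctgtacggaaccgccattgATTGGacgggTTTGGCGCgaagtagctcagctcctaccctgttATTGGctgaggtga
Cdk1, chr10:69352913-69353162, minus strand: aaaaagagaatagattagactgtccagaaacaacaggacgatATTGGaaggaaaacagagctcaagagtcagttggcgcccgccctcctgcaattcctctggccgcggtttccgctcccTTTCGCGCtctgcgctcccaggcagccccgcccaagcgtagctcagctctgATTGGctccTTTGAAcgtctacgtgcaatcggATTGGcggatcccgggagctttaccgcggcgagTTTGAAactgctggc
Cdc20, chr4:118437344-118437593, minus strand: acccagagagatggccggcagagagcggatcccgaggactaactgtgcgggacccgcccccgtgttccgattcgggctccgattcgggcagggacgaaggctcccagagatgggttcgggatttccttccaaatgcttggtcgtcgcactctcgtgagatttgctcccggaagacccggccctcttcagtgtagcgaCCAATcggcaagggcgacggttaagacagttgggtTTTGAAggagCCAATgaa
Kif11, chr19:37376132-37376381, plus strand: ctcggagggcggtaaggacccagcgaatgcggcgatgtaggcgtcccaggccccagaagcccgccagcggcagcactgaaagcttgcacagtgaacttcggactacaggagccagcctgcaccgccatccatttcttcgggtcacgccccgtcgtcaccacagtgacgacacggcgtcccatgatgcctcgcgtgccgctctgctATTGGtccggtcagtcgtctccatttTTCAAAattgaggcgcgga
E2f2, chr4:136172024-136172273, plus strand: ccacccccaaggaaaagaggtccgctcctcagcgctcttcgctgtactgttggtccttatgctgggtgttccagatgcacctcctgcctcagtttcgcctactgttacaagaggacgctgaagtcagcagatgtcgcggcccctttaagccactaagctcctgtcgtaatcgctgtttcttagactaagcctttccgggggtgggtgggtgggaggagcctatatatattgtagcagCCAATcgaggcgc
In Mcm5 a pair of overlapping E2F matches began 153 and 149 bases before the start, and Mcm6 held such a pair at 110 and 106 bases and a further match at 47 bases. Cdk1 carried a CHR at 71 and at 15 bases, each preceded by a CCAAT box in reverse orientation, at 80 and at 48 bases, and an E2F match at 131 bases. The single E2F match of E2f2 lay after the start, at base 40.

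RiboMinus libraries held 920424 to 2473448 unique tags and the Ribo-Zero libraries 28708715 (CCE) and 48426051 (FH). Exons of protein-coding genes took 65.0 to 72.4% of the unique tags in CCE RiboMinus libraries and 44.4 to 61.3% in FH, and introns took 11.2 to 21.9% and 20.5 to 38.6%. Values are RPKM, exon tags per kilobase of merged exons and per 1000000 unique tags, so this composition moves with tissue. Over the 10306 genes with a mean RPKM over 3 in a tissue the median log2 difference, FH minus CCE, was -0.34. Scaled to exon tags in place of unique tags (the exon-tag scale) the median of the same genes was -0.03, a shift of 0.31. The split of their calls moved with the scale, from 2056 higher and 3582 lower (36.5% of calls higher) to 2645 and 2166 (55.0%). On that scale 11978 genes passed the filter, with a median of 0.06, and 3356 were higher and 2271 lower (59.6%). Median-of-ratios scaling gave 2537 and 2533. Counts of members lower in FH are therefore given on both scales for the whole set, the phases, the roles and Ribo-Zero RNA, with the exon-tag value of a gene where its call or sign differed.

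Together the members took a larger part of CCE than of FH tags. They held 3365 to 3612 of every 1000000 unique tags in the 4 CCE preparations and 1154 to 1421 in the 3 FH preparations. As a share of exon tags alone these were 0.476 to 0.511% and 0.202 to 0.268%, so the groups did not overlap on either scale. In bulk RNA a smaller share of dividing cells and less RNA per cell cannot be told apart.

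Of the 42 members 37 passed the RPKM filter, and limma on log2(RPKM + 1) called 26 of them lower in FH and 1 higher at an adjusted p under 0.05, where 34.8% of all 10306 genes were called lower and 19.9% higher. Their median log2 difference was -1.10, beside -0.34 for all genes tested, and 34 of the 37 lay under that median. On the exon-tag scale 20 of 40 members tested were lower and 1 higher (19.0% and 28.0% of 11978 genes), with a median of -0.78. Of the 37 members of the first fit 19 were lower on that scale (21.0% of 10306 genes), with differences from -1.73 (Mcm5) to -0.67 (Ccna2). By phase, 13 of 18 G1/S and 13 of 19 G2/M members were lower in RPKM of unique tags, and 13 of 19 and 7 of 21 on the exon-tag scale. The difference between the phases was not tested. With fragmentation as a covariate 34 of 37 were lower (49.0% of all genes), and with both changes 30 of 40 (31.2%). With the preparations of a depleted RNA averaged, 2 RNA samples against 2, 33 of 37 were lower (44.1% of all genes) and 1 higher. In hydrolysed preparations alone, which by their numbers hold 1 of each RNA sample, 38 of 40 were lower (50.9%). Both fits rest on 4 values a gene. These 2 fits, like the reported fit, also rest on the preparation numbers, which may be crossed between sites for hydrolysed libraries. A sum may then mix RNA samples, and the spread between hydrolysed sums would be too small. With crossed numbers in the fit of 7 preparations 24 of 37 were lower (3313 of all genes, beside 3582 in the reported fit). Of the 42 members 26 had every CCE preparation above every FH preparation, among them 25 of the 37 tested (35.9% of genes tested), and in 1 every FH preparation was above (20.3%). Exact two-sided permutation of 4 against 3 preparations cannot go below p = 0.0571, a value that 27 members reached. The plot of RPKM by preparation shows these levels.

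**Figure D1:**
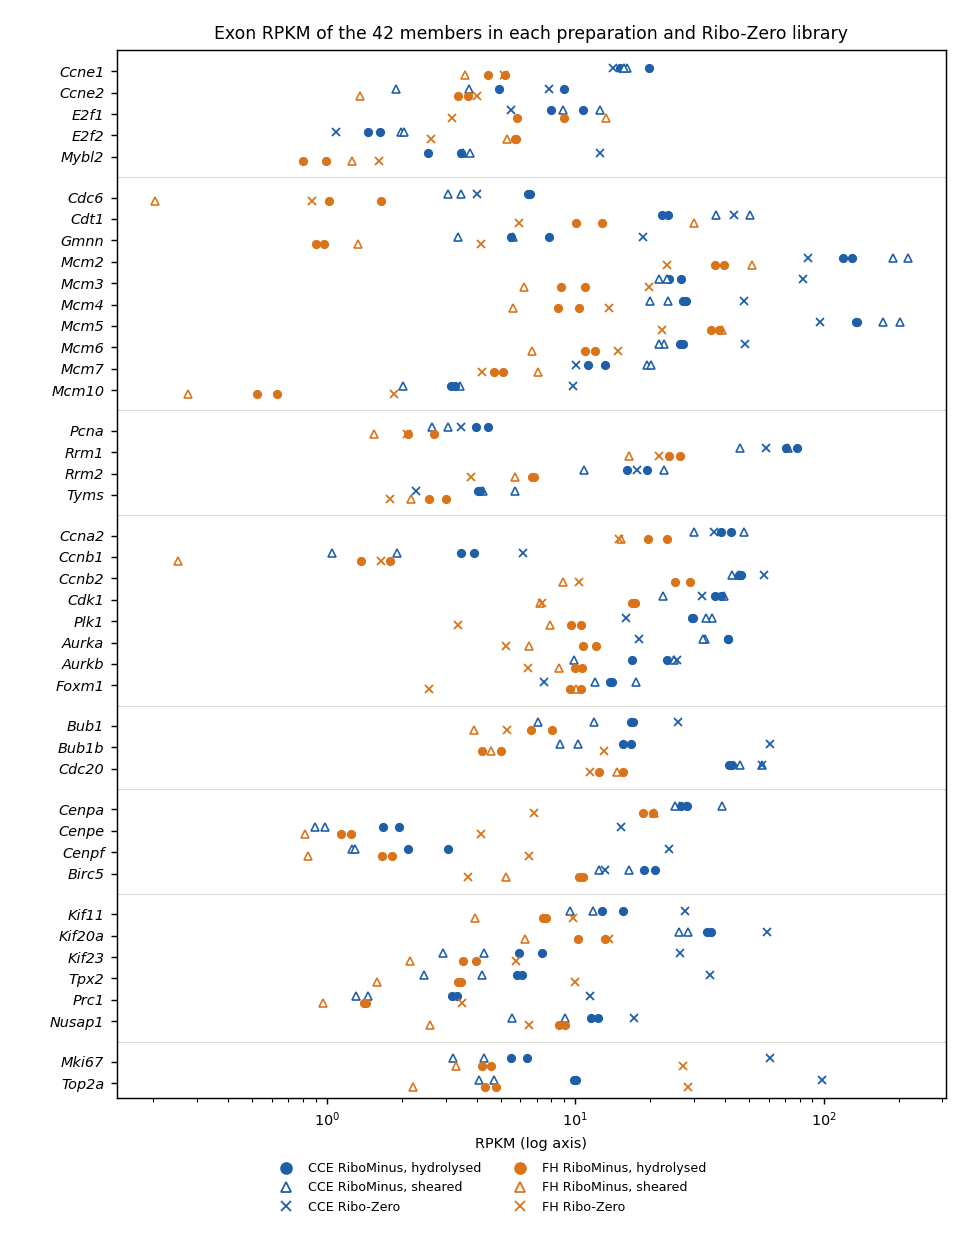
Exon RPKM (log axis) of each of the 42 members, grouped by role, in the 4 CCE and 3 FH RiboMinus preparations (circles hydrolysed, triangles sheared) and in the 2 Ribo-Zero libraries (crosses), CCE in blue and FH in orange. In 26 genes all CCE RiboMinus points lie to the right of all FH points, and in E2f2 the order is the opposite.

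Among the genes of S phase entry, Ccne1 (cyclin E1) was lower in FH and E2f2 was higher. Ccne1 had RPKM of 16.1, 15.2, 15.7 and 19.8 in the sheared and hydrolysed CCE1 and CCE2 preparations and 3.58, 4.45 and 5.21 in FH1 sheared, FH1 hydrolysed and FH2, so no FH value came near a CCE value. Its log2 difference was -1.71 ± 0.18 (SE, limma adjusted p = 6.7e-05). E2f2 (chr4:135728309-135751972, plus strand), a transcription factor of the E2F family, had 1.99, 1.64, 2.04 and 1.46 in the same order of CCE preparations and 5.31, 5.74 and 5.78 in FH. All FH values were above all CCE values, with a difference of 1.25 ± 0.16 (adjusted p = 0.00018) that was 1.67 on the exon-tag scale. Mybl2, a factor of the complex that drives late cell cycle genes, was lower in FH (3.32 ± 0.54 (SD, n = 4) in CCE and 1.01 ± 0.23 (SD, n = 3) in FH, log2 difference -1.10, adjusted p = 0.00065). Of the 5 cyclins and factors of this role 2 were lower and 1 higher on either scale. Over all genes 34.8% were lower and 19.9% higher, and 19.0% and 28.0% on the exon-tag scale. Neither Ccne2 (cyclin E2) nor E2f1 was called, though with fragmentation in the fit Ccne2 was lower (-0.72, adjusted p = 0.0145). On the exon-tag scale with fragmentation in the fit Ccne2 was not called, and 2 of the 5 genes were lower (31.2% of all genes). E2f1 had 7.94 to 12.5 in CCE and 5.80 to 13.3 in FH, and its difference changed sign with the scale, from -0.14 to 0.19 on the exon-tag scale (limma adjusted p = 0.69 and 0.60).

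Of the 9 licensing genes tested 8 were lower in FH (34.8% of all genes), and on the exon-tag scale 9 of 10 (19.0%). Mcm5 and Mcm2, subunits of the ring, had the largest log2 differences of RPKM + 1 among the members tested. That scale understates the differences of low genes, and Mcm10, Gmnn and Cdc6 had larger ratios of means than Mcm5. Mcm5 (chr8:77633427-77652338, plus strand) had 203, 135, 173 and 135 RPKM in CCE1 sheared, CCE1 hydrolysed, CCE2 sheared and CCE2 hydrolysed, and 38.7, 35.3 and 38.0 in FH1 sheared, FH1 hydrolysed and FH2. Its difference was -2.06 ± 0.20 (adjusted p = 3.9e-05), a 4.33-fold ratio of means. Mcm2 (chr6:88833469-88848774, minus strand) had 189, 129, 218 and 120 in CCE and 51.5, 36.5 and 39.6 in FH. In both genes the sheared CCE preparations were above the hydrolysed ones, yet the lowest CCE value was over the highest FH value. The difference of Mcm2 was -1.89 ± 0.26 (adjusted p = 0.00031).

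Mcm3, Mcm4 and Mcm6 formed a group of like level, 23.8 to 24.5 RPKM on average in CCE and 8.13 to 9.87 in FH, with differences of -1.40, -1.51 and -1.26. Mcm7 was lower in both tissues (16.0 ± 4.4 in CCE, n = 4, and 5.62 ± 1.3 in FH, n = 3; difference -1.34). The products of these genes are subunits of a single ring, yet their mean CCE RiboMinus levels ran from 16.0 RPKM for Mcm7 to 164 for Mcm2 and 162 for Mcm5. In Ribo-Zero RNA the CCE levels of Mcm2 to Mcm6 were 86.0, 82.3, 47.5, 96.9 and 48.2 RPKM, and Mcm7 had 10.0. In coding exons alone the CCE RiboMinus means were 228 for Mcm5, 191 for Mcm2, 39.2 for Mcm6 and 24.7 to 26.1 for Mcm3, Mcm4 and Mcm7. Part of Mcm7 could not be seen, since only 78.5% of its exonic 36-mers occur once in the genome. Tags in the 12.6% of its exon bases that overlap other genes were counted, and may come from those genes.

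Cdc6, the loader of the ring, was lower in FH. It had 3.07, 6.42, 3.46 and 6.59 in CCE and 0.203, 1.65 and 1.02 in FH (difference -1.61 ± 0.33, adjusted p = 0.0031). Gmnn (geminin), which holds Cdt1 in check, had 5.57 ± 1.8 in CCE (SD, n = 4) and 1.07 ± 0.23 in FH (n = 3), a difference of -1.63 (adjusted p = 0.00048). Cdt1 itself was not called. Its preparations overlapped, with 36.9, 23.6, 50.3 and 22.3 in CCE and 30.0, 10.1 and 12.8 in FH, where the sheared preparation was the high one (difference -0.95, adjusted p = 0.072). With fragmentation in the fit the adjusted p of Cdt1 was 0.0015. Mcm10, which joins the helicase at firing origins, fell short of the filter at 2.97 ± 0.65 in CCE and 0.477 ± 0.18 in FH, and without the filter its difference was -1.42 (adjusted p = 0.00047). It passed the filter on the exon-tag scale and was lower there (-1.49, adjusted p = 0.00063).

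The 3 enzymes of deoxynucleotide supply were lower in FH. With the clamp Pcna the count was 3 of 4 (34.8% of all genes), or 2 of 4 on the exon-tag scale (19.0%). Rrm1, the large subunit of ribonucleotide reductase, had 71.5, 70.3, 46.1 and 77.8 in CCE and 16.4, 23.9 and 26.3 in FH (difference -1.54, adjusted p = 0.00075). Its partner Rrm2 had 10.9 to 22.7 in CCE and 5.73 to 6.80 in FH (-1.26, adjusted p = 0.0023). Tyms (thymidylate synthase) had 4.07 to 5.72 and 2.17 to 3.00, a smaller difference of -0.63 (adjusted p = 0.0155) that was -0.39 and not called on the exon-tag scale (adjusted p = 0.14). Pcna was not called at 3.54 ± 0.82 in CCE and 2.12 ± 0.57 in FH (-0.54, adjusted p = 0.053), and was lower with fragmentation in the fit (-0.61, adjusted p = 0.0025). Only 64.4% of its exonic 36-mers are unique, and the pseudogene Pcna-ps2 shares 463 of them.

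Of 8 genes, the mitotic cyclins and kinases and the factor Foxm1, 7 were tested and 6 were lower in FH (34.8% of all genes). The count was 4 of 8 on the exon-tag scale (19.0%). Aurka (Aurora A) had 33.3, 41.0, 32.7 and 41.0 in CCE and 6.48, 12.1 and 10.7 in FH, a difference of -1.85 ± 0.23 (adjusted p = 0.00016). Plk1 had 35.6, 29.3, 33.4 and 29.7 in CCE and 7.93, 10.5 and 9.56 in FH (-1.68 ± 0.17, adjusted p = 4.9e-05). Cdk1 (chr10:68799383-68815686, minus strand) had 39.5, 36.6, 22.4 and 38.4 in CCE and 7.22, 16.9 and 17.3 in FH. In each of these genes FH1 sheared was the lowest FH preparation and no FH value reached a CCE value. The difference of Cdk1 was -1.31 ± 0.33 (adjusted p = 0.0086).

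Ccna2 (cyclin A2) had 39.7 ± 7.4 in CCE (SD, n = 4) and 19.4 ± 4.1 in FH (n = 3), a 2.05-fold ratio of means (adjusted p = 0.0044). Ccnb2 (cyclin B2) varied little in CCE, 42.6 to 46.3, and much in FH, where FH1 sheared had 8.93 and the hydrolysed preparations 28.8 and 25.1. Its difference of -1.22 (adjusted p = 0.016) was -0.89 and not called on the exon-tag scale (adjusted p = 0.084). Aurkb (Aurora B) overlapped between tissues, with 9.89 to 24.8 in CCE and 8.63 to 10.6 in FH, and its call (-0.81, adjusted p = 0.046) was lost on the exon-tag scale (-0.49, adjusted p = 0.23) and when any 1 of the preparations CCE1 hydrolysed, CCE2 sheared, CCE2 hydrolysed, FH1 sheared, FH1 hydrolysed or FH2 was left out. Foxm1, a factor that activates G2/M genes, missed the threshold (-0.46, adjusted p = 0.0501), and passed it with fragmentation in the fit (adjusted p = 0.0155). On the exon-tag scale with fragmentation in the fit, 6 of the 8 genes of this role were lower (31.2% of all genes). Ccnb1 (cyclin B1) had under 4 RPKM in every RiboMinus preparation, and 61.5% of its exonic 36-mers are unique, while 798 occur also in the pseudogene Gm5593, and tags from such places were not in the files of unique tags.

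The 3 spindle checkpoint genes were lower in FH (34.8% of all genes), and 2 of them on the exon-tag scale (19.0%). Cdc20, the activator of the anaphase-promoting complex, had 56.5, 42.8, 46.1 and 41.5 in CCE and 14.7, 12.4 and 15.6 in FH (-1.64 ± 0.18, adjusted p = 7.8e-05). Bub1b (BubR1) had 8.69 to 16.8 in CCE and 4.22 to 5.03 in FH (-1.26, adjusted p = 0.0023). Bub1 overlapped between tissues, since CCE2 sheared had 7.05 and FH1 hydrolysed 8.04. Its difference of -0.96 (adjusted p = 0.036) was not called when CCE1 sheared, CCE1 hydrolysed, CCE2 hydrolysed, FH1 sheared or FH2 was left out, nor on the exon-tag scale (-0.67, adjusted p = 0.17).

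Of the 4 kinetochore and centromere genes 2 were tested and 2 were lower (34.8% of all genes), but 0 on the exon-tag scale (19.0%). Birc5 (survivin) had 12.5 to 20.9 RPKM in CCE and 5.27 to 10.7 in FH (-0.93, adjusted p = 0.0185), a call that was lost without CCE1 hydrolysed and on the exon-tag scale (-0.62, adjusted p = 0.13). Cenpa, the centromeric histone, had 25.1 to 38.9 and 18.8 to 20.7, a small difference (-0.53, adjusted p = 0.043). The call of Cenpa was lost on the exon-tag scale (-0.19, adjusted p = 0.44) and when any preparation other than CCE2 sheared was left out. Cenpe and Cenpf, large kinetochore proteins, stayed at 0.899 to 3.06 in CCE and 0.813 to 1.82 in FH, and both groups of preparations overlapped.

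Among spindle motors and cytokinesis genes 2 of 5 were lower (34.8% of all genes), and 1 of 6 on the exon-tag scale (19.0%). Both counts were near the share of all genes. Kif20a was lower in FH (30.8 ± 4.3 in CCE, SD, n = 4, and 9.92 ± 3.5 in FH, n = 3, difference -1.59, adjusted p = 0.00068). Without strand its tags cannot be told from those of Cdc23 on the opposite strand, which covers 32.3% of its exon bases. Kif11, the motor that parts the spindle poles, was also lower (12.4 ± 2.5 and 6.32 ± 2.1, -0.90, adjusted p = 0.015) but not on the exon-tag scale (-0.61, adjusted p = 0.11). Kif23, Tpx2 and Nusap1 overlapped between tissues, with log2 differences of -0.50, -0.56 and -0.55 that were not called. With fragmentation in the fit all 3 were lower, at -0.61 (adjusted p = 0.0048), -0.68 (adjusted p = 0.0036) and -0.71 (adjusted p = 0.0093), where 49.0% of all genes were. On the exon-tag scale with fragmentation in the fit, 4 of the 6 genes of this role were lower (31.2% of all genes). Kif20a and Kif11 were among these 4, so not all 3 kept the call there. Prc1, which bundles the central spindle, fell short of the filter.

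The proliferation markers Mki67 (Ki-67) and Top2a (topoisomerase IIα) were low in every RiboMinus preparation and were not called on either scale. Top2a (chr11:98854257-98885503, minus strand) had 4.10 and 4.69 in the sheared and 10.0 and 9.86 in the hydrolysed CCE preparations, against 2.22 in FH1 sheared and 4.81 and 4.34 in hydrolysed FH. CCE2 sheared fell between the hydrolysed FH values and CCE1 sheared below both, so the groups overlapped although within either fragmentation CCE was higher. The difference was -0.73 (adjusted p = 0.11), and with fragmentation in the fit its adjusted p was 0.00016. Mki67 had 3.23 to 6.40 in CCE and 3.31 to 4.57 in FH (-0.20, adjusted p = 0.48), and 0.10 on the exon-tag scale, and was not called with fragmentation in the fit (adjusted p = 0.10).

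The Ribo-Zero libraries, 1 per tissue and without replicates, gave lower RPKM in FH for 41 of the 42 members, and for 74.6% of the 10050 genes over an RPKM of 3 in either. Of the 40 members over an RPKM of 3 in either library, 37 were over 2-fold lower in FH, where 32.9% of 10050 such genes were. On the exon-tag scale 30 members were over 2-fold lower, beside 13.7% of 12192 genes. The ratio of CCE to FH had a median of 3.66 and ran from 0.414 for E2f2 to 7.76 for Mybl2. Exact 95% intervals, which cover counting error only and take each tag as independent, lay on the CCE side for the 41 members and on the FH side for E2f2.

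The order of genes differed from that in RiboMinus. Cdt1, uncalled in RiboMinus, had 43.7 RPKM in CCE and 5.91 in FH, a ratio of 7.40 (95% interval 6.78 to 8.08). Ccnb2 had 57.6 and 10.3, a ratio of 5.59 (5.15 to 6.06). Top2a had 98.0 and 28.5 (ratio 3.44, 3.37 to 3.51) from 25531 and 12525 tags, and Mki67 had 60.5 and 27.0 (2.24, 2.19 to 2.29). At the low end Tyms had 2.28 and 1.79 (1.28, 1.12 to 1.46) and Pcna 3.47 and 2.11 (1.65, 1.37 to 1.97). On the exon-tag scale the ratio of Tyms turned, to 0.892, and that of Pcna was 1.15. Many tags shared a position, since distinct positions numbered 51.4% (CCE) and 62.6% (FH) of the Ribo-Zero tags. With repeated positions counted once the ratios were 5.54 for Cdt1, 3.87 for Ccnb2, 1.70 for Tyms and 2.10 for Pcna. Each of these lay outside the interval given above, so the intervals and the order of genes depend on how repeated tags are counted. In RPKM of unique tags 23 of 23 G2/M members and 14 of the 19 G1/S members were over 2-fold lower in FH (32.9% of all genes), and on the exon-tag scale 19 and 11 (13.7%). E2f2 had 1.08 in CCE and 2.62 in FH. Across the 37 members tested in RiboMinus, the log2 differences of both depletions had Pearson's r = 0.64 and Spearman's rho = 0.42, a description across genes of the same libraries, and r was 0.88 over 8952 genes.

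**Figure D2:**
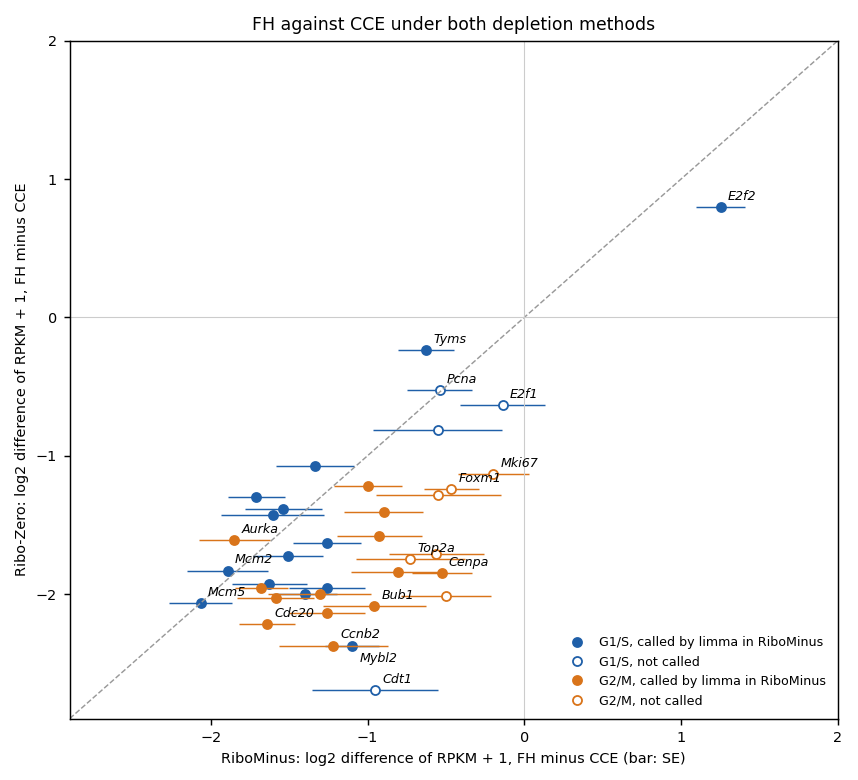
Log2 difference of RPKM + 1, FH minus CCE, in RiboMinus (x, bars SE, 4 CCE and 3 FH preparations) and Ribo-Zero (y, 1 library each, no error) for the 37 members tested, blue for G1/S and orange for G2/M, filled for limma calls in RiboMinus, with a dashed line of equality. E2f2 lies at 1.25 on the x axis and is the only gene above 0 on both axes, while Cdt1, Mybl2 and Ccnb2 lie lowest on the y axis.

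Several members had a far higher level in Ribo-Zero than in RiboMinus RNA of the same tissue. In CCE 14 members were over 2-fold higher in Ribo-Zero (18.3% of 9844 genes) and 2, Plk1 and Aurka, over 2-fold lower (25.5%). In FH 10 were higher (12.9% of 10076 genes) and 8 lower (34.6%). Top2a was 13.7 times higher in CCE and 7.53 times in FH, Mki67 12.5 and 6.72 times, Cenpf 12.3 and 4.49 times and Cenpe 11.1 and 3.90 times. Against the hydrolysed RiboMinus preparations alone, which share the fragmentation of the Ribo-Zero libraries, these ratios were 9.86 and 6.24 for Top2a, 10.2 and 6.17 for Mki67, 9.17 and 3.71 for Cenpf and 8.44 and 3.49 for Cenpe. On that comparison 12 members were over 2-fold higher in CCE (15.9% of 9811 genes) and 1 lower (23.3%), and in FH 10 were higher (11.9% of 10040 genes) and 9 lower (33.0%). The 4 genes have exon models of 7813 to 11368 bases, where the median over the members is 3906. Length did not order the ratios alone, since Prc1, with 8225 bases, was 4.92 and 2.75 times higher in CCE and FH and Tpx2, with 4677 bases, 7.47 and 3.55 times. Mcm2 and Mcm5 went the other way, at 0.551 and 0.599 times in FH. Kit, RNA, sequencing site, tag length and, where sheared preparations are in the mean, fragmentation changed together between these libraries and cannot be told apart. The tag totals behind RPKM differed as well. Mitochondrial tags made up 8.23% (CCE) and 4.54% (FH) of them in Ribo-Zero and 0% in RiboMinus libraries.

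Fragmentation also moved the members. With tissue in the fit 17 of 37 members were higher after hydrolysis (25.7% of all genes) and 3 lower (20.3%). Among G2/M members 11 of 19 were higher and none was lower by limma (0 also at an unadjusted p under 0.05), while 6 of 18 G1/S members were higher and 3 lower. Ccne2 (1.01 ± 0.22 log2 units, adjusted p = 0.0059), Nusap1 (0.98), Top2a (0.93), Cdc6 (0.87) and Bub1 (0.79) rose most. Cdt1 (-1.06 ± 0.16, adjusted p = 0.0011), Mcm2 (-0.59) and Mcm7 (-0.57) fell. The count of 17 rested in part on single preparations, since it was 7 without FH1 sheared, 11 without CCE2 hydrolysed and 3 in CCE alone. Over all genes the count fell as well, from 2650 to 1628 without FH1 sheared and to 844 in CCE alone. With the depleted RNA in place of tissue in the fit, which compares preparations of the same RNA, 9 members were higher (18.5% of all genes) and 3 lower (15.3%), and the 8 genes named here stayed called. Fits by depleted RNA rest on the preparation numbers, which may be crossed between sites for hydrolysed libraries.

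Both effects went with base composition. Across the 37 members the change with hydrolysis had r = -0.79 (rho = -0.74) with exon GC, beside -0.69 over 10306 genes. The difference between Ribo-Zero and RiboMinus had r = -0.45 in CCE and -0.51 in FH over the 42 members (-0.48 and -0.55 over all genes), and 0.51 and 0.53 with log2 exon length (0.21 and 0.28 over all genes). Against hydrolysed RiboMinus preparations alone the members had r = -0.34 and -0.41 with GC and 0.50 and 0.52 with log2 length. The 21 members with the lower exon GC, 37.6 to 48.1%, were at a median of 1.96 times their RiboMinus level in CCE Ribo-Zero RNA, and the 21 with 48.5 to 58.8% at 0.914 times. These are descriptions across genes, which share libraries and are not independent replicates.

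**Figure D3:**
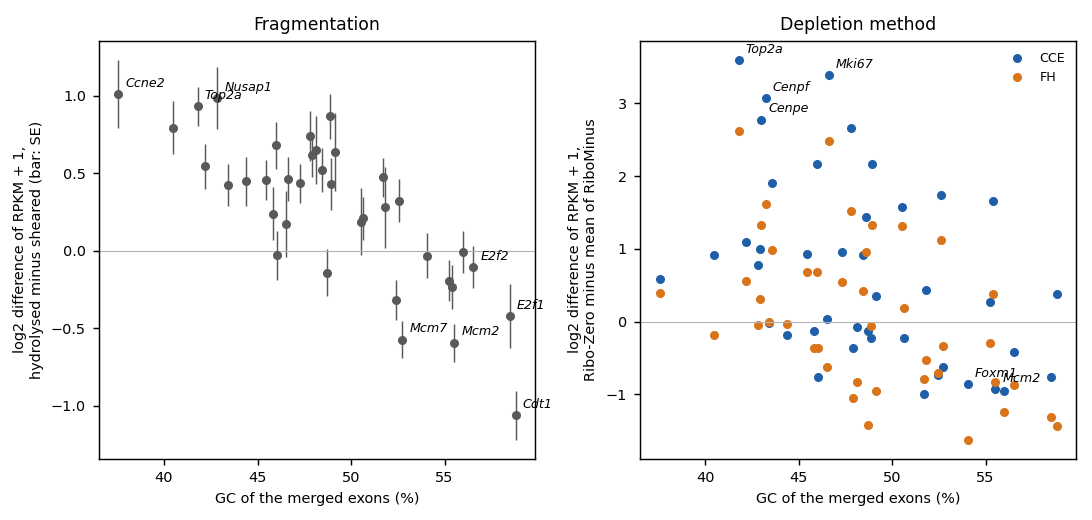
Left, log2 difference of RPKM + 1 between hydrolysed and sheared preparations (bars SE, tissue in the fit) of 37 members against the GC of their merged exons in percent. Right, log2 difference between Ribo-Zero and mean RiboMinus RPKM + 1 of all 42 members in CCE (blue) and FH (orange), where Top2a and Mki67 stand highest in both tissues.

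Introns were counted as a readout of unspliced RNA, in tags per 1000000 unique tags (CPM). Of 37 members with a mean intron CPM over 3, limma called 6 lower in FH (4.8% of 10501 genes) and none higher (37.7%), with 7 lower and 0 higher at an unadjusted p under 0.05. The count of members higher at another setting was at most 1. The median log2 difference of the members was -0.20, beside 0.61 for all genes, whose intron share was larger in FH. Scaled to intron tags in place of unique tags, a choice added after the data were seen, 31 of 42 members were lower (28.1% of 13583 genes) and none higher (18.8%), with a median of -1.18 beside -0.29.

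Mcm5 had intron CPM of 17.7, 31.6, 17.4 and 29.7 in CCE and 5.82, 11.6 and 13.2 in FH, without overlap (-1.18 ± 0.36, adjusted p = 0.012). Rrm2 (-1.15, adjusted p = 0.0103), Cdc6 (adjusted p = 0.026), Mcm7 (-0.94, adjusted p = 0.035), Cdt1 (-0.86, adjusted p = 0.0497) and Mybl2 (-0.79, adjusted p = 0.0497) were the others called. These 6 were assigned to G1/S, Mybl2 by choice, and none of 21 G2/M members tested was called by limma, nor at an unadjusted p under 0.05. Scaled to intron tags, however, 15 of 19 G1/S and 16 of 23 G2/M members were lower, and the difference between the phases was not tested on either scale. Counts were small, 326 and 111 tags in all for Mcm5 and 61 and 15 for Cdc6, and the number called was 2 when CCE1 hydrolysed, CCE2 hydrolysed, FH1 sheared, FH1 hydrolysed or FH2 was left out. In Ribo-Zero RNA the intron CPM was lower in FH for 38 of the 42 members (23.3% of 10885 genes with an intron CPM over 3) and over 2-fold lower for 12 (5.01%). The median ratio of FH to CCE was 0.589 in introns and 0.273 in exons, beside 1.55 and 0.637 over all genes. The ratio was over 1 for 4 members. Ccna2 had 1.17, with an interval of 0.97 to 1.43 that spans 1, and Ccne2, E2f1 and E2f2 had intervals above 1, with ratios of 1.27 (95% interval 1.08 to 1.51), 1.39 (1.16 to 1.67) and 1.53 (1.23 to 1.92).

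**Figure D4:**
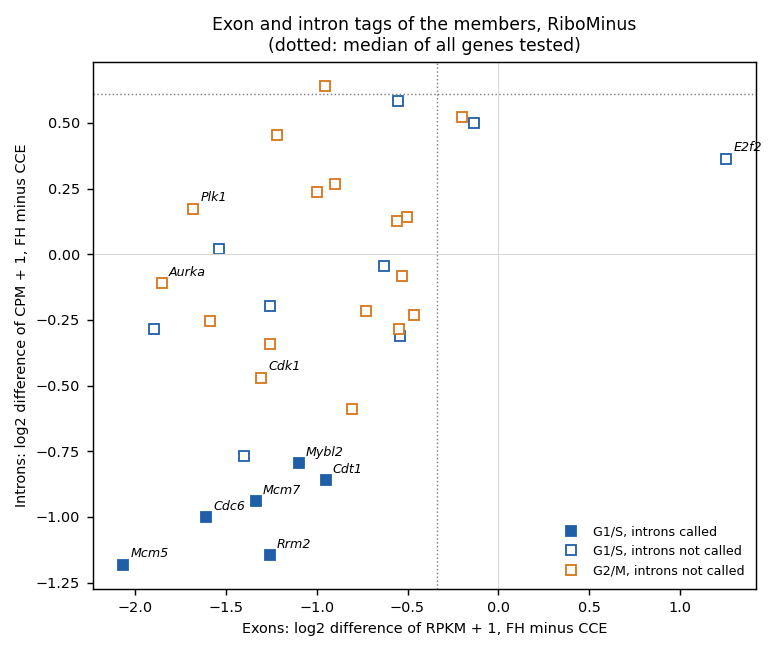
Log2 difference, FH minus CCE, of exon RPKM + 1 (x) and intron CPM + 1 (y) for members tested in both, RiboMinus, with filled squares for the 6 members called in introns and dotted lines at the medians of all genes, -0.34 and 0.61. The members lie below the intron median with 1 exception, Bub1, at 0.64.

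Other cell cycle genes were taken from 6 lists of 142 symbols, of which 141 were matched. Of 112 tested, 80 were lower in FH (34.8% of all genes), 1 was higher (19.9%) and the others were not called, and on the exon-tag scale 47 of 124 were lower (19.0%) and 1 higher (28.0%). In Ribo-Zero RNA 98 of 134 were over 2-fold lower (32.9%) and none over 2-fold higher (12.1%). Among origin firing genes 10 of 16 were lower, led by Orc6 (36.8 ± 14 RPKM in CCE, SD, n = 4, and 9.24 ± 3.4 in FH, n = 3; -1.85) and Gins4 (-1.83). Of the replication fork genes 18 of 25 were lower, led by the flap nuclease Fen1 (-1.92) and Rpa1 (-1.91), which binds single-stranded DNA. Of G1 cyclins, kinases and E2F-Rb factors 12 of 14 were lower, led by E2f4 (96.9 ± 10 and 28.1 ± 2.3, -1.75) and Cdk6 (-1.47). Mitotic kinases, checkpoint and APC/C genes were lower in 13 of 22, led by Ccnf (63.6 ± 6.6 and 10.8 ± 1.6, -2.45) and Melk (-2.05), and 1, the phosphatase Cdc25b, was higher (0.71, adjusted p = 0.013) at 4.49 and 4.61 RPKM in CCE and FH Ribo-Zero RNA. Kinetochore, spindle and cytokinesis genes were lower in 20 of 24, led by Ckap2 (34.6 ± 3.0 and 3.29 ± 1.4, -3.11) and Kif18b (-2.24), and condensin and cohesin genes in 7 of 11, led by Ncapd2 (-2.10) and Ncaph (-1.17). On the exon-tag scale, where 19.0% of all genes were lower, the counts were 9 of 18 for origin firing, 8 of 26 for the fork, 7 of 16 for G1 cyclins, kinases and E2F-Rb factors, 7 of 23 for mitotic kinases, checkpoint and APC/C, 13 of 29 for kinetochore, spindle and cytokinesis and 3 of 12 for condensin and cohesin. Each list but the origin genes was nearer to its background on that scale. In Ribo-Zero RNA the counts over 2-fold lower, beside 32.9% of all genes, were 14 of 19, 20 of 27, 6 of 17, 15 of 22, 34 of 36 and 9 of 13 in the same order. The G1 list, at 35.3%, was thus close to the share of all genes there.

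The CDK inhibitors, which restrain the cyclin-dependent kinases, were lower in FH for 3 of 6 tested (34.8% of all genes) and higher for 1 (19.9%). On the exon-tag scale 3 of 6 were lower (19.0% of all genes) and 2 higher (28.0%). In Ribo-Zero RNA 3 of 6 were over 2-fold lower (32.9%) and 1 over 2-fold higher (12.1%). The counts higher were near the shares of all genes. Their summed RPKM was 469 to 949 in CCE and 220 to 514 in FH RiboMinus preparations, but 214 and 323 in Ribo-Zero. Cdkn1c, named after its values were seen, made up most of the FH Ribo-Zero sum, at 123 RPKM in CCE and 301 in FH. Cdkn2a, the locus of p16 and p19Arf, had 152 ± 57 RPKM in CCE (n = 4) and 0 tags in FH, where 3 tags over the 3 preparations together would give 0.258 RPKM, and 20.7 and 0 in Ribo-Zero. Cdkn2b (p15) had 89.9 ± 22 and 0.990 ± 0.48, and Cdkn1a (p21), named after its values were seen, had 143 ± 9.9 and 8.30 ± 1.1. Cdkn2c (p18) was higher in FH (4.62 ± 1.1 and 7.65 ± 0.88, 0.64, adjusted p = 0.028), though at 4.75 and 4.61 in Ribo-Zero.

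Marker genes differed between the tissues, with mixed cells in FH. Their lists were chosen with earlier results of these data known, so they are no check of the labels. The counts that follow stand beside 34.8% of all genes lower and 19.9% higher. Pluripotency genes were lower in FH in 6 of 7 tested, with Pou5f1 and Dppa5a at 0 tags in FH and 18.0 ± 2.5 and 9.44 ± 6.9 RPKM in CCE, while Klf4 was higher (5.75 ± 2.1 and 16.2 ± 7.9), though at 2.82 and 2.79 in Ribo-Zero. Extraembryonic endoderm genes (Sparc, Lamb1, Col4a1) were lower in 7 of the 7 tested among 8 listed, with summed RPKM of 273 to 354 in CCE and 81.3 to 88.8 in FH. Genes of postmitotic neurons, which do not divide, were higher in 8 of 8 (Stmn2, Tubb3, Gap43), with sums of 37.4 to 47.2 in CCE and 431 to 713 in FH. Neural progenitor genes were higher in 5 of 6, Neurog2 and Hes5 among them with Hes5 at 0 tags in CCE, and Vim was lower, though at 198 in both tissues in Ribo-Zero. The sum of the neural progenitor genes was nonetheless 550 to 1360 in CCE and 346 to 643 in FH, and 250 and 350 in Ribo-Zero. Vim made up most of the RiboMinus sums, at 784 ± 371 RPKM in CCE (SD, n = 4) and 294 ± 115 in FH (n = 3). FH sums were higher for genes of cartilage and bone (7 of 7, Col1a1, Col2a1, Matn1), erythroid cells (5 of 5, Hbb-y, Hba-x, Alas2), lens and epidermis (5 of 6, Krt5, Crybb1, Cryaa; Cryab, named after its values were seen, was lower, at 50.2 ± 13 in CCE and 4.00 ± 0.38 in FH, and none of the 6 was over 2-fold lower in Ribo-Zero), endothelium (5 of 5, Cdh5, Tie1, Kdr) and skeletal muscle (5 of 6, Myog, Acta1; Des was lower). The part of this cell mixture in the member differences was not tested.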

How the data were processed

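Total RNA depleted of ribosomal RNA was sequenced as 36-base (RiboMinus) or 51-base (Ribo-Zero) single tags without strand. Per the labels and the study's methods, the authors aligned tags to mm9 with Bowtie and kept uniquely placed tags, without tags across splice junctions. The deposited files of 16 libraries hold 1 line per tag. Other samples of the series were not analysed here. Tag midpoints were counted in merged exons, coding exons and introns of 22367 nuclear protein-coding genes (GENCODE M1), libraries of a cDNA preparation were summed, and RPKM and CPM were computed here from these counts. limma 3.58.1 (R 4.3.3) was run with a trended prior on log2(value + 1), two-sided, with Benjamini-Hochberg adjustment at 0.05 over all genes with a mean RPKM (introns, CPM) over 3 in a tissue, and fold changes on this scale are too small for low genes. The fit recovered 164 of 200 genes changed 4-fold in simulated data, with 4 false calls among 10306 genes. The simulated noise was independent between preparations, so shared depleted RNA and the far larger number of real calls were not covered. Ribo-Zero had 1 library per tissue, hence ratios with exact 95% conditional binomial intervals and no test. Python 3.11.15 with scipy 1.17.1 was used for the rest.

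The members and gene lists were chosen with earlier results of these data known. Named were all 42 members, the 2 largest rises and 2 largest falls among the calls of each other cell cycle list, and the 3 marker genes per list with the highest mean RPKM in a tissue. The symbols Ticrr, Sox1 and Map2 were not matched. Preparation numbers of the hydrolysed libraries may be crossed between sites, since differences between preparations 1 and 2 at both sites had r = -0.66 (CCE) and -0.52 (FH) across genes and 0.66 for sheared CCE, so crossed sums were an alternative. Scaling, filters, pseudocounts, weights, fragmentation, sites, depleted RNA, a replicate block and each preparation left out were also tried. The averages by depleted RNA, the fit with depleted RNA as a term and the exon-tag fit on the same genes were chosen after the data were seen.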

Additional observations from a re-analysis of the deposited data

Results flagged for a closer look

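Among the 42 members, 2 had a CCE preparation far from the other 3 by Dixon's ratio, about the number that chance gives at 1 in 20 groups. Tyms had 5.72 RPKM in CCE1 sheared and at most 4.25 in the others. Cdk1 had 22.4 RPKM in CCE2 sheared and at least 36.6 in the others. Both remained called lower in FH when that preparation was left out.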

How the results depend on the processing

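The number of members lower in FH was 26 of 37 in the reported fit (34.8% of all genes). It ran from 19 on the exon-tag scale over the same 37 members (21.0%) to 38 of 40 in hydrolysed preparations alone (50.9%), so the share of all genes moved with it. With each preparation left out it was 22 to 29, and 1 member was higher at every setting. Of the 27 calls, 20 were kept at all 25 settings, and the exceptions were Tyms, Ccnb2, Aurkb, Bub1, Cenpa, Birc5 and Kif11. With the replicate numbers of the titles as a replicate block the count was 30, with 4123 of all genes lower beside 3582 in the reported fit, though the numbers do not pair the samples (correlations of deviations from -0.61 to 0.50). Crossed preparation numbers gave 24 (3313 of all genes), and the FH1 hydrolysed library of Vienna-IMP left out, chosen after the data were seen, gave 27 (3512 of all genes). Over all genes the number higher was 3650 without a filter, 3356 on the exon-tag scale and 4277 with fragmentation added, and the number lower was 2271 on the exon-tag scale and 2166 there over the same genes. With each preparation left out these counts were 1791 to 2048 and 2930 to 3744. The sign of 2 uncalled members changed. E2f1 had 0.19 on the exon-tag scale with either gene set, 0.092 by median-of-ratios and 0.25 on the exon-tag scale with fragmentation, and with each preparation left out it ran from -0.40 to 0.13. Mki67 had 0.098, 0.0089 and 0.0048 at these settings in the same order and 0.064 in Nijmegen alone. For hydrolysis, members higher were 3, all genes higher 844 and lower 693 in CCE alone, which has fewer preparations, and with the depleted RNA as a term 9 members were higher. With each preparation left out they were 7 to 19, 1628 to 3219 and 1201 to 2589, with 3 to 4 members lower. For introns, fragmentation in the fit gave 1 member higher and 1209 genes lower. Scaled to intron tags 31 members were lower, with 2560 genes higher and 3814 lower. With each preparation left out, 2 to 6 members were lower and 0 to 1 higher, with 2825 to 4633 genes higher and 372 to 596 lower. The cause of the other changes was not tested. Members under a few RPKM rest on few tags, and technical replicates limit what the p-values cover.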
